A study of Homo sapiens with 18 samples.

Results

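The regions described here are 514 accessible chromatin peaks of Ccd18-Co colon fibroblasts that stood higher after belinostat than in every other library of the study. A peak was taken when its 18 counts summed to at least 100 and when its count per 1000000 counts of the library (CPM) in each of the 6 belinostat libraries exceeded the highest CPM of the other 12 libraries. The members were thus chosen by the measured CPM of these same libraries. The 514 peaks made up 0.283% of the 181571 peaks with enough counts, out of 334857 peaks in all. Differences from the belinostat libraries are therefore given as a description, without a test. Open chromatin was profiled by ATAC-seq after Omni-ATAC nuclei isolation, a method whose transposase inserts adaptors where DNA is accessible, in 3 groups of 6 cultures. Unstimulated cells received no cytokine. The DMSO group received 3 pulses of TNF, OSM and IL-17A (10 ng/ml each) with IL-1β (0.1 ng/ml), each of 72 h and followed by 96 h of recovery, and after 1 week of rest DMSO alone for 5 days. The belinostat group received the same pulses and rest and then 250 nM belinostat in DMSO for 5 days. The nuclei were taken 2 weeks after that treatment, so belinostat was no longer in the medium. The doses are those of the sample labels. The study's text gives a higher belinostat concentration, and in places a lower IL-1β dose. The labels do not give a vehicle for the unstimulated cells, and all 18 libraries came from 1 line, kept to passage 20 at most, so the spread between libraries is that between cultures of this line.

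Histone deacetylases remove acetyl groups from histone tails, and belinostat blocks them. While such an inhibitor is present, acetylated histones accumulate, and acetylation generally goes with open chromatin. Whether a region is open in fibroblasts also depends on the factors that bind it. TEAD factors, with the cofactors YAP and TAZ, bind the word GGAATG at many fibroblast enhancers, AP-1 (FOS and JUN proteins) binds TGANTCA, and basic helix-loop-helix factors such as TWIST1 bind E-boxes such as CAGNTG. TNF, IL-1β and IL-17A signal largely to NF-κB and AP-1, and OSM signals to STAT proteins.

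The TEAD word was found in 159 of the 514 peaks (30.9%, 95% Wilson interval 27.1 to 35.1) within 300 bp around the peak centre, against 22.2% of all peaks with enough counts. Below are the 300 bp windows of 4 peaks that hold it, chosen after their values were seen as those with the largest gap between the belinostat and the other libraries, leaving out the peak next to HBB. They are shown because the TEAD word was the word in the fixed list with the widest gap above the other peaks. Sequence is from hg38, forward strand, 5′ to 3′, and capitals mark the TEAD word or its reverse complement.

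Distal peak nearest CPLANE1, chr5:37072251-37072550: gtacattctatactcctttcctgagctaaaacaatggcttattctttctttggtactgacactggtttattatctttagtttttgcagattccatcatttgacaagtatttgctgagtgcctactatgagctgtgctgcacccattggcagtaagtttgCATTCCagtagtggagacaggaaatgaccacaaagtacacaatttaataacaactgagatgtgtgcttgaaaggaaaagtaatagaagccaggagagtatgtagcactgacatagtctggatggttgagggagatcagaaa
Distal peak nearest KIF18A, chr11:27926461-27926760: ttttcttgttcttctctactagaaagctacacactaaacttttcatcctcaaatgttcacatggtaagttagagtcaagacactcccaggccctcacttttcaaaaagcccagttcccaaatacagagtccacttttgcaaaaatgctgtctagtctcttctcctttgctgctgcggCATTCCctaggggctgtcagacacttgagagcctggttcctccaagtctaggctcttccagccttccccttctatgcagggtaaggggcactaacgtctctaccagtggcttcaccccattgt
Peak in an intron of MYO5A, chr15:52392378-52392677: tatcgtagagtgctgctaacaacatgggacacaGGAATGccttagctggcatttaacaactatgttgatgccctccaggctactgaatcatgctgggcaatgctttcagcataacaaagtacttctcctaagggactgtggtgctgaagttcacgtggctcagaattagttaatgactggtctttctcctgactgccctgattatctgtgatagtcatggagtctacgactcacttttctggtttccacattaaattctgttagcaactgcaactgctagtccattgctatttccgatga
Peak in ENSG00000286538, chr19:29841636-29841935: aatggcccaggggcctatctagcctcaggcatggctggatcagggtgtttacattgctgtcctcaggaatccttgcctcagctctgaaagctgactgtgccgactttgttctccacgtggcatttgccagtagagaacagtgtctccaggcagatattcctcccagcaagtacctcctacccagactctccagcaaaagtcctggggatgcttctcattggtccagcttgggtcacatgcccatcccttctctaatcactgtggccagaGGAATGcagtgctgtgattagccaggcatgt

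Each window held 1 TEAD word. That of the MYO5A intron also held 1 AP-1 word and 2 E-boxes, that nearest CPLANE1 held 1 E-box, and the others held neither. The word lay in the first part of the MYO5A window and near the end of the ENSG00000286538 window, so it was not always central. Over all 159 peaks the nearest TEAD word lay at a median of 59 bp from the centre, close to the 61 bp of all peaks with the word. A match to a word is a description of the sequence and not a bound site.

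How many peaks met the rule depended on the scaling and on the depth. The rule divides by library totals. With TMM factors, which scale libraries by a trimmed mean of their log ratios over all peaks, 148 peaks met it, of which 128 were among the 514. With the size factors of DESeq2 172 peaks met it, 153 of them among the 514, and with a loess offset that evens out the trend of each library with abundance 443 did, of which 209 were shared. Only 66 of the 514 peaks met the rule under all 3 of these scalings, and with TMM factors taken from the weaker 50% of peaks it held for 10 peaks, 3 of them shared. The gap was narrow in most peaks. The lowest belinostat CPM divided by the highest CPM of the other libraries, called the margin below, had a median of 1.06 and a maximum of 1.47, it was under 1.05 in 218 peaks, and it reached 1.2 in 56. Without belinostat 1, belinostat 4 or belinostat 6 the count of peaks was 1399, 899 or 776. Without belinostat 2, belinostat 3 or belinostat 5 it was 703, 730 or 732. Leaving out a library removes a condition of the rule, so a rise is built in, apart from peaks that fall under the count minimum. In 307 of the 514 peaks a single count fewer in the lowest belinostat library would have ended membership, and the count in that library had a median of 12. For comparison, 1973 peaks (1.09%) lay below all other libraries after belinostat, and 82 peaks (0.0452%) lay above all others in DMSO, 1609 (0.886%) in unstimulated cells. Most members thus stood above the other libraries by a small margin.

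Depth differed between the groups. The belinostat libraries held 4661678 to 6370845 counts in peaks, the DMSO libraries 6488975 to 8066642 and the unstimulated libraries 7077321 to 11352032, so that a belinostat CPM rested on fewer counts. The median member had between 10 and 17 counts in a library. The 10000 strongest peaks took 28.4% to 34.5% of the counts in belinostat libraries, 31.8% to 35.2% in DMSO and 35.4% to 39.0% in unstimulated libraries, which means that a larger share of the belinostat counts lay in weaker peaks. The TMM factors ran from 0.976 to 1.18, from 0.950 to 1.08 and from 0.827 to 0.925 in the same order. The part of these differences in membership was not tested beyond the scalings above. At the strongest peak over the start of 10 fibroblast genes the median level in unstimulated libraries was 29.1 CPM per kb, against 1.24 for 7 epithelial, 1.68 for 5 endothelial and 0 for 6 immune marker genes. Genes without a peak at their start were entered as 0, namely THY1 of the fibroblast genes and 2 epithelial, 1 endothelial and 4 immune genes. Among the epithelial genes KRT8 reached 26.3 CPM per kb, and among the immune genes CD14 had 7.88. The medians in the belinostat libraries were 23.1 for the fibroblast, 4.51 for the epithelial, 3.47 for the endothelial and 0 for the immune genes, and none of these start peaks was a member. The medians of a list fell on different genes. The epithelial 1.24 was that of CDH1, which had 4.37 in DMSO and 0.755 in belinostat libraries. The 4.51 was that of VIL1, with 1.21 in unstimulated and 3.03 in DMSO libraries. The endothelial 1.68 was that of TIE1 (2.01 in DMSO, 4.90 in belinostat). The 3.47 was that of VWF (2.13 in unstimulated, 3.45 in DMSO). These differences were not tested.

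The 514 peaks took 0.227% to 0.248% of all counts in the belinostat libraries, 0.136% to 0.153% in DMSO and 0.136% to 0.145% in the unstimulated libraries. Their mean belinostat CPM ran from 1.12 to 44.8 with a median of 2.77, where the median of the DMSO means was 1.48 and that of the unstimulated means 1.38. The ratio of the belinostat mean to the DMSO mean had a median of 1.78 and ran from 1.12 to 3.84. Against unstimulated cells it had a median of 1.92 and ran from 1.15 to 5.05. This second ratio depended on the scaling, as the median fitted log2 fold change over unstimulated cells was 0.93 under library totals, 0.63 with TMM factors and 0.048 with factors from the weaker 50% of peaks. At least a 2-fold ratio was found over DMSO in 172 peaks, over unstimulated cells in 232 and over both in 136. Each belinostat library was the highest of the 6 in between 47 and 118 peaks and the lowest in between 63 and 108. Among the other 12 libraries DMSO 4 and DMSO 5 were most often the highest, in 75 and 69 peaks.

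**Figure D1:**
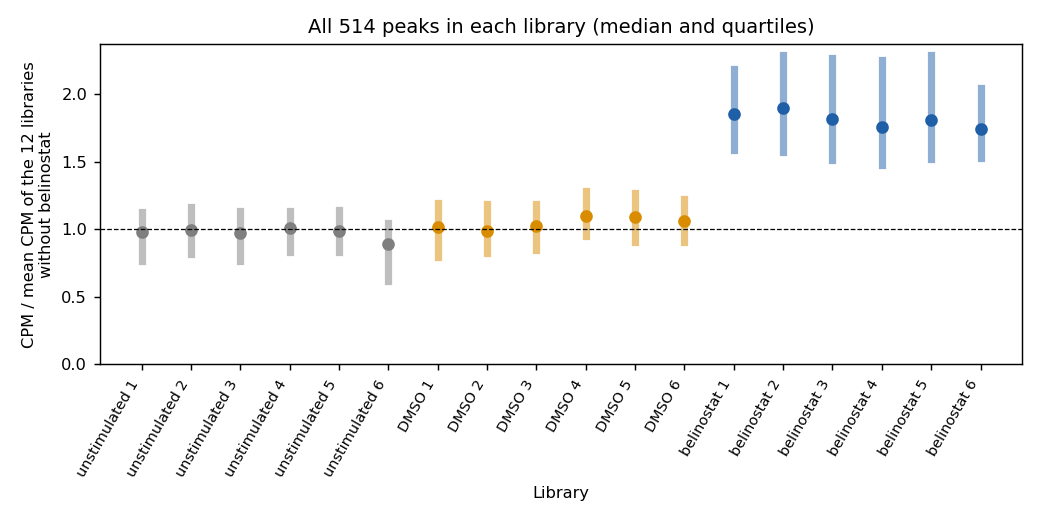
CPM of the 514 peaks in each library (x axis) divided by the mean CPM of the same peak in the 12 libraries without belinostat (y axis, ratio). Points are medians and bars run from the first to the third quartile. All 6 belinostat medians lie between 1.74 and 1.90, as the rule requires them to lie above the rest, and the medians of the other libraries lie between 0.891 and 1.10.

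Among the members, weak peaks had larger ratios than strong ones. The rule itself favours this, as values that rest on few counts spread more widely. A weak peak then needs a larger ratio to clear the other 12 libraries. Whether the ratios differ beyond this was not tested. In the 129 members with the lowest mean CPM (0.819 to 1.11) the median ratio over DMSO was 2.10, and in the 129 with the highest (4.13 to 39.1) it was 1.50. The share of peaks that met the rule was 0.287% at sums of 100 to 200 counts, 0.377% at 401 to 800 and 0.0810% over 1600. The share of peaks below all others after belinostat went the other way, from 0.0249% to 5.11%. Strong peaks were thus rarely members, and how readily a peak meets either rule depends on its counts.

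**Figure D2:**
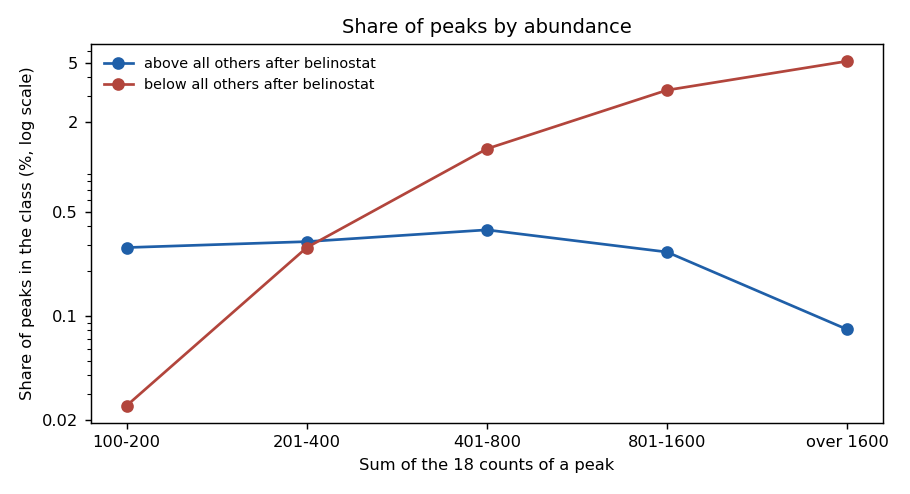
Share of peaks (y axis, percent on a log scale) that lay above or below all other libraries after belinostat, by the sum of the peak's 18 counts (x axis). The upper list stays between 0.268% and 0.377% up to 1600 counts and is at 0.0810% beyond, and the lower list climbs in each class.

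The widest margin was that of a peak in an intron of DLEU7, a gene of the chromosome 13 region often deleted in lymphocytic leukaemia (chr13:50693628-50694135). Its lowest, median and highest CPM were 5.85, 6.65 and 7.06 in belinostat, 2.22, 3.52 and 3.78 in DMSO and 2.80, 3.58 and 3.99 in unstimulated libraries. The belinostat mean was 6.57 ± 0.451 (SD, n = 6), which was 2.05 times the DMSO mean and 1.84 times the unstimulated mean. The belinostat libraries lay close together here, and the DMSO and unstimulated ranges overlapped. An intergenic peak 176975 bp from the start of CPLANE1, a gene of primary cilia (chr5:37071859-37072943), came next. It had 7.46, 8.08 and 11.9 CPM in belinostat against 2.82, 3.97 and 5.08 in DMSO and 4.29, 4.61 and 5.09 in unstimulated libraries, a ratio of 2.23 over DMSO and of 1.90 over unstimulated cells. The third was an intergenic peak 181545 bp from the start of KIF18A, a mitotic kinesin (chr11:27926413-27926810), with 3.22, 3.82 and 4.11 CPM against 1.07, 1.32 and 2.10 and 1.21, 1.86 and 2.20. Its mean was 2.56 times that of DMSO, and a neighbouring member began within the same stretch of 1136 bp. All 3 peaks lie away from gene starts, and all 3 met the rule under each of TMM, size factor and loess scaling.

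The other 9 of the 12 widest margins had belinostat medians from 1.38 to 4.88 CPM, the highest at HBB, which is described with the globin genes. A peak in the IGF1R gene, which encodes the receptor for insulin-like growth factor 1 (intron, chr15:98734823-98735189), had 1.50, 1.59 and 1.86 CPM in belinostat, 0.420, 0.615 and 1.08 in DMSO and 0.601, 0.676 and 0.769 in unstimulated libraries, a ratio of 2.30 over DMSO. These levels rest on 7 to 11 counts per belinostat library. An intergenic peak 67362 bp from LRRC32, which encodes the surface protein GARP that holds latent TGF-β (chr11:76603245-76603525), had 1.07, 1.49 and 2.44 CPM against 0.280, 0.682 and 0.771 in DMSO and 0.141, 0.444 and 0.659 in unstimulated libraries. Its ratio was 2.48 over DMSO and 3.71 over unstimulated cells, and it rested on 5 to 15 counts. Members in introns of DISC1, which encodes a scaffold protein, and MYO5A, which encodes a vesicle motor, had ratios over DMSO of 2.17 and 1.76. Those in introns of TMCO4 and of the long non-coding gene ENSG00000286836 had 2.32 and 2.36, and that near PRB1, a salivary protein gene, had 2.02. All 12 met the rule with TMM factors, and 10 with loess offsets, the peaks at LRRC32 and TMCO4 being the exceptions.

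**Figure D3:**
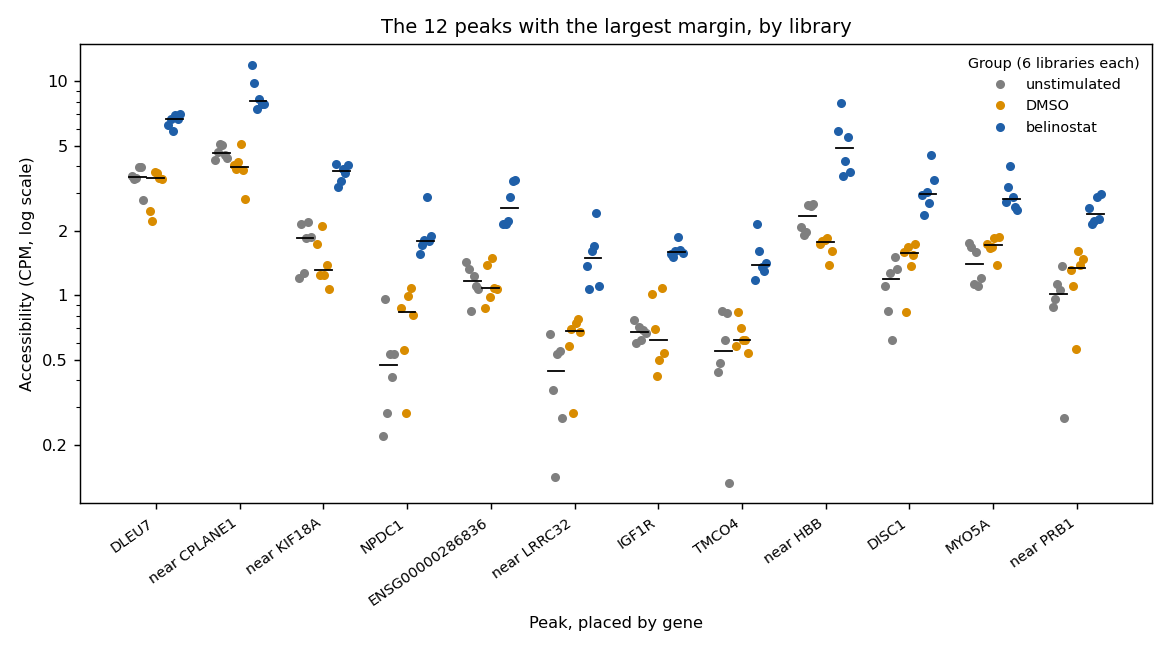
CPM (y axis, log scale) of the 12 peaks with the widest margin in each of the 18 libraries, placed by the gene that holds them or, where marked near, by the nearest protein-coding start (x axis). Points are libraries and black lines group medians. In each peak the lowest belinostat point lies above all others, as chosen, and the DMSO and unstimulated points overlap in every peak but HBB, where all DMSO values (1.39 to 1.86 CPM) lie below the unstimulated ones (1.92 to 2.66 CPM).

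The peaks with the highest levels had small ratios. An intergenic peak nearest ADPGK, which encodes a glucokinase that uses ADP (chr15:72902262-72903170), had 41.7, 44.5 and 48.9 CPM in belinostat against 32.1, 37.5 and 40.2 in DMSO and 28.6, 36.5 and 39.1 in unstimulated libraries, a ratio of 1.21 over DMSO. A peak nearest PREP, a prolyl peptidase gene (chr6:105608647-105609956), had a mean of 36.7 ± 3.54 (SD, n = 6) in belinostat and a ratio of 1.47. Members in introns of PHLDB1, of the secreted metalloproteinase gene ADAMTS12 and of LINC02643 had ratios of 1.19, 1.28 and 1.49. None of these 5 met the rule with TMM factors or size factors, and all 5 did with loess offsets. Fitted with TMM factors, the log2 fold change of belinostat over unstimulated cells was -0.10 at PHLDB1 and -0.07 at ADAMTS12. It was 0.03 at the peak nearest ADPGK, 0.16 at that nearest PREP and 0.12 at LINC02643.

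At gene starts, 30 members (5.84%) lay within 1 kb of the start of a protein-coding gene, against 9.23% of all peaks with enough counts. In peaks of similar mean CPM, defined below, the share was 4.98%. The ratios of the 30 over DMSO ran from 1.19 to 3.03 with a median of 1.55. A matrix gene and a regulator were among the widest margins. The peak at the start of VCAN, which encodes the large matrix proteoglycan versican (chr5:83471450-83471811, 12 bp from the start), had 9.26, 10.8 and 14.1 CPM in belinostat, 4.96, 7.62 and 8.17 in DMSO and 6.66, 7.16 and 7.81 in unstimulated libraries. The ratio was 1.63 over DMSO and 1.59 over unstimulated cells. The peak 866 bp from the start of ID2, in an exon of its antisense gene ID2-AS1 (chr2:8677652-8678307), had 10.5, 12.8 and 14.7 CPM against 4.78, 8.58 and 9.10 and 5.90, 7.01 and 7.80. ID2 encodes a helix-loop-helix protein without a DNA-binding region that binds and holds back E-box factors, and the ratio was 1.64 over DMSO and 1.86 over unstimulated cells. ATAC-seq does not separate the strands, so the signal belongs to neither gene in particular. Both peaks met the rule under TMM, size factor and loess scaling.

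The other members at starts varied in their place in the cell. COL8A1, a short-chain collagen gene, had a peak 297 bp from its start (chr3:99637424-99638932) with 11.3, 12.7 and 14.4 CPM in belinostat against 8.32, 9.13 and 10.6 in DMSO and 6.74, 9.31 and 9.73 in unstimulated libraries, a ratio of 1.36 over DMSO. MT1F, which encodes a metal-binding metallothionein, had 5.59, 5.82 and 7.63 CPM (chr16:56657325-56658591) against 4.90, 4.97 and 5.24 and 2.64, 3.48 and 4.58. Here the DMSO libraries lay above all unstimulated ones, the belinostat libraries above both, and the ratios were 1.25 and 1.80. CCRL2, an atypical chemokine receptor gene, had 3.30, 3.81 and 4.43 CPM (chr3:46406960-46407659) against 2.47, 2.79 and 3.08 and 1.37, 2.09 and 2.68, with ratios of 1.38 and 1.89. None of these 3 passed the edgeR test of DMSO against unstimulated cells over all peaks (adjusted p = 0.443, 0.201 and 0.447). The starts of PEX3, a peroxisome gene, HID1, which encodes a Golgi protein, and LCE2D, an epidermal envelope gene, had ratios over DMSO of 1.66, 1.46 and 1.73. A peak in an exon of NPDC1, 157 bp from the start of ENSG00000279073, had 2.54. Of these 7, NPDC1 and LCE2D met the rule with TMM factors.

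Both members of the globin genes lay in the β-globin locus on chromosome 11, which is silent outside the red cell lineage. A peak 502 bp from the annotated start of HBB (chr11:5229605-5230189) had 3.63, 4.88 and 7.94 CPM in belinostat, 1.39, 1.77 and 1.86 in DMSO and 1.92, 2.35 and 2.66 in unstimulated libraries. The ratio was 3.03 over DMSO and 2.23 over unstimulated cells, and the 3 groups did not overlap. DMSO fell below unstimulated cells, by edgeR's quasi-likelihood test over all peaks (log2 fold change -0.65 ± 0.23, SE, with an adjusted p of 0.0305). The adjusted p ran from 0.000737 to 0.183 over 19 other fits, of which 10 kept the call and the loess offsets lost it. The other member (chr11:5287957-5288545) lies in an intron of ENSG00000239920 and within the extended gene models of HBG2 and HBE1. It had 6.33, 8.81 and 11.2 CPM against 2.36, 4.39 and 5.04 and 2.83, 3.61 and 5.32, a ratio of 2.17 over DMSO. DMSO and unstimulated libraries overlapped there. The globin genes held 26 peaks with enough counts, of which these 2 (7.69%) were members, against 0.283% of all peaks with enough counts. This list was chosen with earlier results of these data known, so nothing is read from its share. The median log2 fold change of belinostat over DMSO across the 26 peaks was 0.08, against -0.04 over all peaks with enough counts. The peak at HBB met the rule under TMM, size factor and loess scaling, the other with loess offsets.

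Members rarely lay together. For 504 of the 514 no other member was within 50 kb, the rest formed 5 pairs, and there was no group of 3. The 337 genes that held a member in their body held 1 each apart from 12 genes with 2, among them AKAP6, FRMD4A, ACER2, GLI2, IGF1R and PARD3. These genes held between 5 and 72 peaks with enough counts. In ACER2, a ceramidase gene, both members were intronic, with ratios over DMSO of 2.71 and 1.69. In FRMD4A the members lay in an intron and an exon, with ratios of 2.12 and 1.78, and in AKAP6, which anchors protein kinase A, both were intronic, with 2.28 and 1.66. The share of peaks that were members ran from 0.109% on chromosome 22, with 5 members, to 0.380% on chromosome 2, with 55.

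By position the 514 peaks resembled peaks of similar abundance. Within 3 kb of a gene start lay 98 of them (19.1%, 95% Wilson interval 15.9 to 22.7), against 23.0% of all peaks with enough counts and 18.9% of the 126626 peaks whose mean CPM lay between the 10th and 90th percentile of the members (0.938 to 7.25). Introns held 289 (56.2%), intergenic sequence 165 (32.1%) and exons 60 (11.7%). At similar abundance these shares were 58.6%, 29.8% and 11.6%. The median distance to a start was 15108 bp against 13652 bp at similar abundance. Their median width was 503.5 bp against 428 bp, and the median GC content of the 300 bp window was 47.3% against 48.3%.

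In their sequence, 3 of the 14 words searched had the widest gaps to the peaks of similar abundance, and the other 11 differed from them by less than 3 percentage points. The shares that follow are over 300 bp around the centre on both strands. The TEAD word GGAATG stood in 30.9% of the members, in 23.0% of peaks of similar abundance and in 19.3% of the 1973 peaks that lay below all others after belinostat. At least 2 TEAD words were found in 33 members (6.42%), against 3.25% of all peaks with enough counts and 1.93% of the lower list. The word had much the same share in members away from starts (31.0%, against 23.9% of all such peaks) and within 3 kb of starts (30.6%, against 16.8%). The peaks with a TEAD word had a median ratio over DMSO of 1.79, and the others 1.77.

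The AP-1 word TGANTCA went the other way. It was found in 67 members (13.0%, interval 10.4 to 16.2), in 22.5% of peaks of similar abundance and in 34.0% of the lower list. Away from starts the AP-1 word was in 13.2% of members against 23.9% of all such peaks, and within 3 kb of starts in 12.2% against 13.5%. The E-box CAGNTG was found in 250 members (48.6%, interval 44.3 to 53.0), in 61.7% at similar abundance and in 78.7% of the lower list. Away from starts these were 47.1% of members against 62.5% of all peaks, and within 3 kb of starts 55.1% against 55.0%, so the gaps of both words were seen mainly away from starts. The word TTGCNNAA of CEBP factors was in 13.0% of members and 15.9% at similar abundance, that of GLI factors (GGGTGGT) in 7.39% (interval 5.43 to 9.98) and 4.96%, and that of RUNX (TGTGGT) in 23.2% and 22.8%. NF-κB words (GGGNNTTCC) were found in 6.23% and 4.87%, and those of GATA, ETS, MEF2 and CTCF and the CCAAT and GC boxes each differed by less than 2 percentage points. The dinucleotide CG was in 89.3% and 91.9%. The TEAD, AP-1 and E-box shares kept their side of the background in the peaks that met the rule under TMM (26.4%, 9.46% and 56.8%). With loess scaling they did so as well (31.6%, 13.3% and 49.4%). Both lists were chosen as comparisons after seeing the data. They are not independent of the members, which made up 128 of the 148 TMM peaks and 209 of the 443 loess peaks. Under TMM the gap to all peaks with enough counts was 4.11 percentage points for TEAD (main 8.70) and -4.04 for E-box (main -12.2). That of AP-1 was -12.1 (main -8.50). No intervals were computed for these lists, so whether the smaller gaps exceed counting error was not tested. Peaks share sequence families and the member list was set by these libraries, so the members' intervals cover counting error only. Among all 2080 words of 6 bases, counted with their reverse complements and looked at after the fixed list, AGGAAT, which overlaps the TEAD word, had the widest gap up (33.5% against 22.3% at similar abundance). TAAACA, which was not in the fixed list, came next (33.5% against 25.5%), ahead of the TEAD word itself. CAGGAA, which does not hold the TEAD word, followed that word with 41.1% against 33.9%. The E-boxes CAGATG (16.3% against 26.3%) and CAGCTG (15.0% against 24.6%) had the widest gaps down.

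**Figure D4:**
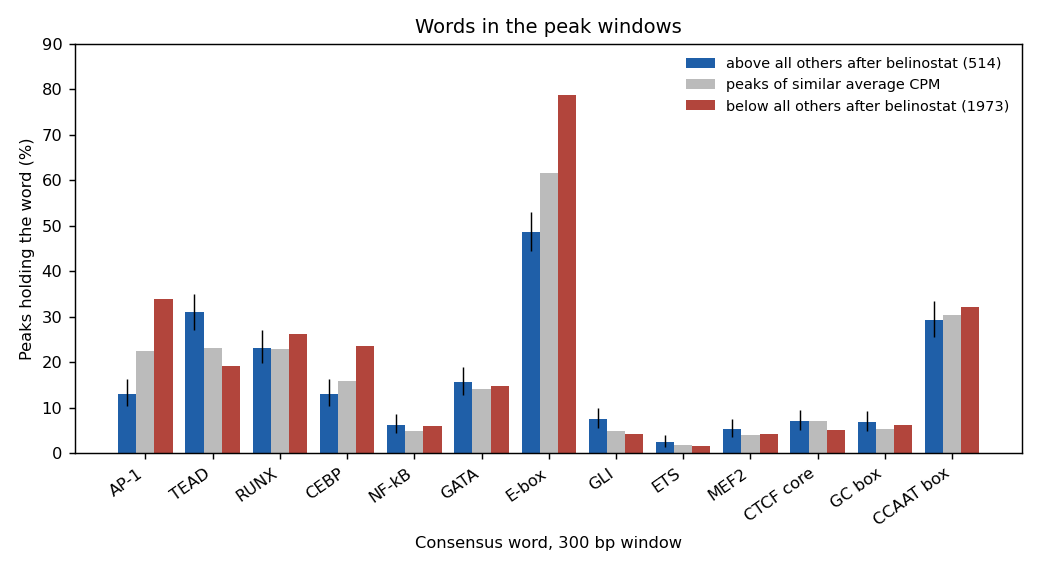
Share of peaks (y axis, percent) whose 300 bp window holds each of 13 consensus words on either strand (x axis), in the 514 members, in peaks of similar average CPM and in the 1973 peaks below all others after belinostat. Error bars are 95% Wilson intervals on the members. The TEAD bar of the members (30.9%) is above both others, and the AP-1 (13.0%) and E-box (48.6%) bars are below both.

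The peaks around members differed from the rest over a short distance. The 166 peaks with enough counts that lay within 1 kb of a member without being one had a median log2 fold change of belinostat over DMSO of 0.25 in edgeR, and 72.9% of them were above 0. At 1 to 2 kb the median was 0.04, at 2 to 5 kb 0.03, at 5 to 20 kb -0.02 and beyond 500 kb -0.04, which was the median over all. Around the lower list the medians were -0.32 within 1 kb, -0.16 at 1 to 2 kb and -0.10 at 5 to 20 kb, so they reached further. Those neighbours were stronger, with a median sum of 364 counts within 1 kb against 158.5 around members. Over all peaks with enough counts the median was 0.06 at sums of 100 to 200 and -0.16 over 1600. The part of this trend in the longer reach was not tested. A fragment that spans a pair of neighbouring peaks can be counted in both, and its part in the values within 1 kb was not tested. Within 5 kb of a member the median of the 642 peaks was 0.09 and it turned to -0.05 with factors from the weaker 50% of peaks, which moved the median of all peaks with enough counts to -0.18.

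**Figure D5:**
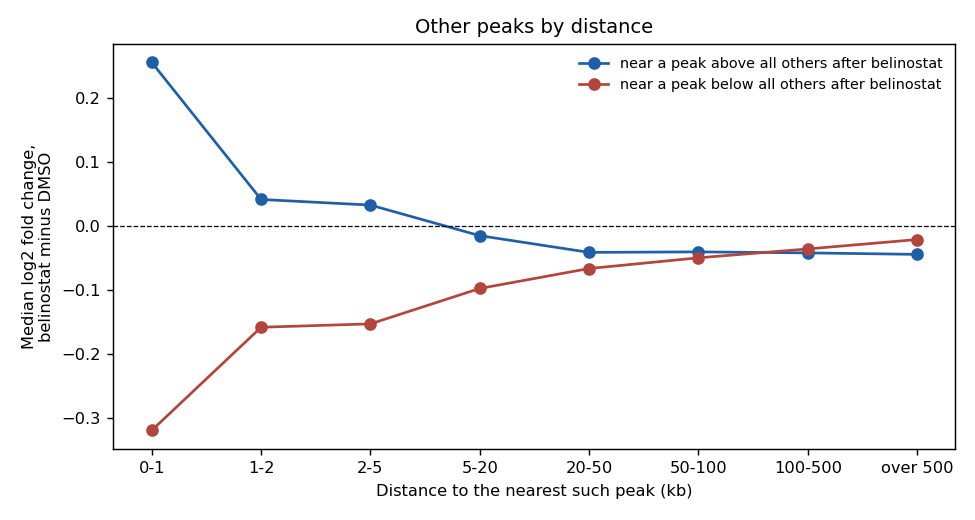
Median log2 fold change of belinostat minus DMSO (y axis) of other peaks with enough counts, by their distance to the nearest peak above (blue) or below (red) all others after belinostat (x axis, kb). The blue line is at 0.25 within 1 kb and at 0.04 from 1 to 2 kb, and the red line starts at -0.32 and approaches the others over 20 kb.

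The regions were also compared between DMSO and unstimulated cells. The rule used these 12 libraries too, since each had to lie under the lowest belinostat value, which limits how far both groups can part. The counts and p-values of this comparison are therefore a description of the members, and nothing is read from their shares. In edgeR's quasi-likelihood test over all peaks, 5 of the 514 rose in DMSO over unstimulated cells at an adjusted p under 0.05, where 7.35% of the peaks with enough counts did, and 30 fell (5.84%), where 17.7% did. The members' own share of rises was 0.973%. At similar abundance 8.16% of peaks rose and 9.25% fell. The members' fold change of DMSO over unstimulated cells had a median of -0.10 on the log2 scale, with quartiles of -0.29 and 0.11, and in all peaks with enough counts the median was -0.12, with quartiles of -0.36 and 0.27. The split depended on the scaling, with 21 rises and 4 falls under library totals, 7 and 3 with loess offsets, 2 and 9 with DESeq2 and 0 and 185 with factors from the weaker 50% of peaks. Leaving out 1 library at a time gave 2 to 7 rises and 13 to 39 falls, and the counts moved by over 1.5 times without unstimulated 1 (2 rises, 18 falls), unstimulated 6 (3 and 14), DMSO 1 (3 and 13), DMSO 3 or DMSO 6 (3 rises each), unstimulated 4 (18 falls) and DMSO 2 (19 falls). The DMSO mean CPM was above the unstimulated mean in 326 members (63.4%), and in 64.6% of peaks at similar abundance.

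Among the 5 that rose, the smallest p belonged to an intergenic peak 5453 bp from CST2, a salivary cystatin gene (chr20:23831796-23832568). It had 1.51, 2.90 and 3.00 CPM in unstimulated, 3.39, 4.90 and 5.74 in DMSO and 5.76, 6.86 and 8.67 in belinostat libraries, so that the 3 groups were separate, belinostat from DMSO by a margin of only 1.004 that was lost with TMM and size factors. The log2 fold change between the first 2 groups was 0.66 ± 0.18 (SE), with an adjusted p of 0.0062 in edgeR, and the ratio of belinostat over DMSO was 1.47. A peak nearest FTMT, the mitochondrial ferritin gene, but 485167 bp from it (chr5:121366551-121366879), had medians of 0.558, 1.50 and 2.25 CPM in the same order and rose by 1.08 ± 0.32 on the log2 scale (adjusted p = 0.00983). A peak in an intron of CLPTM1, 15995 bp from the start of the NF-κB gene RELB (chr19:44985273-44985660), had medians of 0.484, 1.18 and 2.05 CPM and rose by 1.02 ± 0.35 (adjusted p = 0.0295). The belinostat values above those of DMSO follow from the rule in these 3 regions. The FTMT peak met the rule under none of TMM, size factor and loess scaling and rested on 4 to 16 counts per library. The CLPTM1 peak met it with TMM and size factors but not with loess offsets. With loess offsets the rise at CST2 kept its call (adjusted p = 0.000218) and those at FTMT and CLPTM1 did not (0.0546 and 0.168). Over 19 other fits the adjusted p ran from 0.000218 to 0.525 at CST2, from 0.0029 to 0.139 at FTMT and from 0.0112 to 0.224 at CLPTM1.

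The smallest p among the 30 that fell was that of an intron of AKAP6 (chr14:32561478-32561988), with 3.57, 3.62 and 4.20 CPM in unstimulated, 1.60, 2.20 and 3.10 in DMSO and 4.22, 5.64 and 6.65 in belinostat libraries. DMSO lay below unstimulated cells without overlap, by -0.86 ± 0.19 on the log2 scale (adjusted p = 0.000872, and 1.74e-05 to 0.0247 over 19 other fits). An intron of the long non-coding gene PCAT1 (chr8:126579740-126580583) had medians of 3.82, 2.39 and 6.71 CPM, with a difference of -0.89 ± 0.21 (adjusted p = 0.00148, and 1.63e-05 to 0.0668). The DMSO libraries parted at PCAT1, with 0.416 to 1.82 CPM in DMSO 1 to 3 and 2.95 to 3.70 in DMSO 4 to 6. The latter lay inside the unstimulated range of 2.66 to 4.54. A peak 213685 bp from FGF9, a growth factor gene (chr13:21884302-21885215), had medians of 4.80, 3.29 and 7.48 CPM, with -0.69 ± 0.17 (adjusted p = 0.00295, and 0.000132 to 0.100). In each of these 3 regions the belinostat CPM lay above that of the unstimulated cells, as the rule requires, at 1.44, 1.77 and 1.62 times the unstimulated mean. These ratios are by library totals, while the differences above were fitted with TMM factors. Fitted with TMM factors, belinostat over unstimulated cells was 0.21 ± 0.17, 0.49 ± 0.18 and 0.37 ± 0.16 (SE) on the log2 scale. The AKAP6 and PCAT1 peaks met the rule with loess offsets but not with TMM or size factors. The FGF9 peak met it under all 3. At AKAP6 the margin was under 1.05, and at PCAT1 as well.

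The gene lists of the study's cell states held almost no members, as given here by count. None was found among 69 peaks of 5 transcription factors of inflammatory fibroblasts, 67 peaks of 15 markers of that state, 105 peaks of 7 contractile stroma markers, 178 peaks of 11 histone deacetylases, 37 peaks of 5 genes induced by deacetylase inhibitors, 79 peaks of 12 neuronal genes, 39 of epithelial and 7 of immune markers. At the background share of 0.283% lists of this size would hold few or none. The 13 peaks of universal fibroblast markers, the 141 of HOX genes, the 123 of olfactory receptors, the 101 of keratins and the 29 of clustered protocadherins also held 0. Fibroblast identity genes held 1 member in 100 peaks, in an intron of PDGFRB, the receptor for platelet-derived growth factor (chr5:150153879-150154670). It had 12.4, 13.3 and 14.1 CPM in belinostat against 9.56, 10.9 and 12.0 in DMSO and 9.76, 11.4 and 11.9 in unstimulated libraries, a ratio of 1.21 over DMSO. It met the rule with loess offsets but not with TMM or size factors. Its log2 fold change over unstimulated cells fitted with TMM factors was -0.07. Endothelial markers held 1 in 48 peaks, in an intron of VWF, the von Willebrand factor gene, with a ratio of 1.73. The VWF peak met the rule under none of TMM, size factor and loess scaling. The collagen genes held 2 members in 725 peaks, at COL8A1 (above) and in an intron of COL4A1 with a ratio of 2.04. Zinc finger genes of the ZNF family held 3 in 1594 peaks, at ZNF775, ZNF609 and ZNF536, with ratios of 2.28, 1.70 and 1.65.

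At the edge of the rule the values were nearly level. The members with the smallest margin were at ANK1, BICC1, HTT, ENSG00000249776, AAK1 and ACSL5, with margins from 1.00017 to 1.00178. At ANK1 the lowest belinostat CPM was 3.22 and the highest of the others also 3.22. Just outside lay peaks at LCOR, TPRG1, GPAT3, CELF2, MRTFB and CMIP, with margins from 0.999518 to 0.999949. The peaks on each side of the threshold thus had the same levels within counting error.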

How the data were processed

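The authors trimmed and aligned the ATAC-seq reads to hg38 with the ENCODE pipeline, dropped duplicates and mitochondrial reads, used MACS2 to find peaks, joined these into a consensus set and counted fragments per peak with csaw. The values deposited by the authors are raw counts without normalization. The 18 columns were matched to libraries by title. Depth outside peaks was not used here, so TMM factors came from the peaks, where the authors used background bins. The test was that of edgeR 4.0.16 under R 4.3.3 (glmQLFit and glmQLFTest, 1 mean per group over 18 libraries, Benjamini-Hochberg over 334857 peaks). The filter at an average log2 CPM of -3 removed no peak, the lowest being -1.81. The edgeR test and the rule were first run on simulated counts with known changes. Gene features came from GENCODE release 44, and starts of peaks are counted from 1. A peak was placed by the gene holding its centre, else by the nearest protein-coding start. Named peaks were the 12 widest margins, the 5 highest levels, the 10 widest margins within 1 kb of a protein-coding start, the 3 smallest p in each direction between DMSO and unstimulated cells, the 6 on each side of the threshold, members in the listed loci and those of 5 genes with the most members. Pseudoautosomal peaks are given no values. Alternatives were library totals, TMM over weaker peaks, loess offsets, DESeq2 1.42.0, other count minimums, a replicate block and leaving out each library. The members and gene lists were chosen with earlier results of these data known. P-values measure the spread between cultures of 1 line.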

Additional observations from a re-analysis of the deposited data

Results flagged for a closer look

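Among 120 sets of 6 libraries checked at the named peaks, 7 held 1 library far from the other 5, and chance gives about 1 in 20. At the NPDC1 peak belinostat 4 had 2.88 CPM where the other belinostat libraries had 1.57 to 1.88. At the IGF1R peak belinostat 4 had 1.86 against 1.50 to 1.62. At PHLDB1 belinostat 1 had 42.1 against 33.0 to 35.5, and at PEX3 belinostat 5 had 3.08 against 2.22 to 2.54. At the first ACER2 peak belinostat 2 had 3.65 against 1.57 to 1.95, and at the exonic FRMD4A peak belinostat 5 had 6.01 against 4.23 to 4.89. In these 6 cases the lone library was the highest, and the membership of a peak rests on its lowest belinostat library. At VWF unstimulated 2 had 2.88 against 2.20 to 2.42.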

How the results depend on the processing

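The count of peaks that met the rule was 514 and moved by more than 1.5 times with the TMM factors over all peaks (148), with those of the weaker 50% of peaks (10), with DESeq2 size factors (172) and with a count minimum of 50 (1044) or 200 (284). Leaving out 1 library gave 517 to 1399 peaks, and over 1.5 times the count without belinostat 1 (1399), belinostat 4 (899) or belinostat 6 (776). A rise is built in here, as each library left out removes a condition of the rule. The rises between DMSO and unstimulated cells among the 514 (5) became 21 with library totals, 0 with the weaker peaks, 2 with DESeq2 and 14 at an average log2 CPM over 0, and the falls (30) became 4, 185, 9 and 8, and 3 with loess offsets. Leaving out 1 library gave 2 to 7 rises and 13 to 39 falls. The median log2 fold change of members over DMSO (0.73) became 0.82 under library totals and 0.59 under the weaker peaks, and over unstimulated cells (0.63) 0.93 and 0.048. The same settings moved all peaks with enough counts over DMSO from -0.04 to 0.05 and -0.18, and over unstimulated cells from -0.13 to 0.17 and -0.72. Other peaks within 5 kb (0.09) had 0.18 under library totals, -0.049 under the weaker peaks, and 0.0079 within 20 kb. The share of members at starts (19.1%) was 9.92% within 1 kb and 10.3% for protein-coding genes, against 14.0% and 13.5% of all. Gaps in percentage points to all peaks with enough counts were, for the peaks that met the rule with TMM factors, AP-1 -12.1 (main -8.50), TEAD 4.11 (8.70), E-box -4.04 (-12.2), MEF2 -1.06 (1.49), CTCF 1.61 (-0.84) and the dinucleotide CG 0.64 (-3.31). With loess offsets they were MEF2 -1.06, GC box 6.99 (-1.55) and CG -0.28. The causes were not tested. Libraries with the same replicate number did not deviate together (r from -0.20 to 0.11, over 0.1 in 2 of 18 pairs), and in 8 of 36 comparisons a library correlated best with its own number. With the replicate block 6 members rose and 33 fell. A member had a median of 10 to 17 counts in a library, which limits the margins.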
